A study of Saccharomyces cerevisiae with 14 samples.

Results

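The mitochondrial genome of budding yeast (Saccharomyces cerevisiae) was represented by 54 features of the 12449 in the deposited count table. They were chosen by their identifiers: every feature whose name starts with Q0, the 15S and 21S ribosomal RNAs of the organelle, and every tRNA whose name ends in Q, Q1 or Q2. These comprise 8 mRNAs for core proteins, 2 rRNAs, 24 tRNAs, 10 reading frames that lie within introns, and 10 other reading frames. RNA was measured by sequencing in 14 libraries of strain W303U, a MATa haploid with auxotrophic markers (ade2-1, leu2-3 and others), all grown at 30 °C in a glucose medium without uracil and leucine to an OD600 of 0.8. In 3 groups of 3 libraries, RNA came from cells given 500 µM 4-thiouracil (4tU) for 1.5, 2.5 or 5 min, and was biotinylated and captured on streptavidin beads. A group of 2 libraries went through the capture without label, and a group of 3 held total RNA depleted of rRNA, without capture. The labelled and total RNA libraries carry the timecourse numbers 1, 2 and 3. The titles of the label-free samples name timecourses 1 and 3, but their data columns are marked only as replicates 1 and 2, so which column belongs to which timecourse is not known. They are numbered 1 and 2 here by column and paired with no timecourse, and below a timecourse means its labelled and total RNA libraries. One of those 2 samples has a source field that names total RNA after depletion and a title that names background; its group follows the title. The labels do not say whether the 3 timecourses were separate cultures, so p-values here measure the spread between these libraries. In bulk RNA, fewer cells or mitochondria with a transcript and less of it in each cannot be told apart.

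Mitochondrial DNA in yeast encodes subunits of the respiratory chain and of the ATP synthase, one ribosomal protein, and the rRNAs and tRNAs that translate them. It is transcribed by a nuclear-encoded phage-type RNA polymerase, Rpo41 with its partner Mtf1, from promoters that contain a nonanucleotide. The long primary transcripts are cut into mRNAs, rRNAs and tRNAs, many of them by removal of the tRNAs that lie between them, and some carry self-splicing introns that encode their own proteins. Glucose is known to repress respiration in this yeast. A label such as 4tU enters RNA in place of uracil, so that captured RNA is enriched for molecules made during the pulse.

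Sequences of features named in the results are shown first, and a relation between sequence and level was not tested. The sequences are RefSeq's, of build R64, whose annotation listed 44 of the 54 features, all of them on the mitochondrial chromosome. This chromosome (MT) is 85779 bases long with 82.9% A and T. Both forms of the promoter nonanucleotide, ATATAAGTA and TTATAAGTA, were searched on each strand, and 17 matches lay on the plus strand and 5 on the minus strand. A match lay within 100 bases upstream of the annotated start of 5 of 46 annotated mitochondrial genes (10.87%), against 29 of 6412 nuclear genes (0.452%). A match is only a run of letters, and the mitochondrial and nuclear windows were not matched for A and T content. The windows of these 5 genes are given below 5′ to 3′, on the plus strand, with the nonanucleotide in capitals, because both rRNAs and the tRNAs for phenylalanine and cysteine, described below, are among them. The match ended directly before 21S_rRNA and 14 bases before tC(GCA)Q. It ended 24 bases before tF(GAA)Q, 12 before tM(CAU)Q2 and 75 before 15S_rRNA. All genes printed here lie on the plus strand.
15S_rRNA (6452 to 6481): atttattattATATAAGTAataaataatag
21S_rRNA (57990 to 58019): attattatatATATAAGTAgtaaaaagtag
tC(GCA)Q (64382 to 64411): atataaataaTTATAAGTAtataaagtaat
tF(GAA)Q (77388 to 77417): atatattataTTATAAGTAataataagtat
tM(CAU)Q2 (85004 to 85033): aagtaatataATATAAGTAttaatatataa

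The tRNA genes printed next are given in full, with the anticodon in capitals: the most abundant one (tF(GAA)Q, for phenylalanine), the next most abundant (tH(GUG)Q, for histidine), and the one whose labelled share differed most from its share in total RNA (tC(GCA)Q, for cysteine). The genes for cysteine and histidine lie close together, and the same nonanucleotide is the nearest upstream of both, 195 bases before tH(GUG)Q.
tF(GAA)Q (77431 to 77505): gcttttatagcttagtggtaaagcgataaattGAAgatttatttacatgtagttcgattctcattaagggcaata
tH(GUG)Q (64596 to 64670): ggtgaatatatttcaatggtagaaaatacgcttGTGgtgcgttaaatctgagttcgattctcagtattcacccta
tC(GCA)Q (64415 to 64490): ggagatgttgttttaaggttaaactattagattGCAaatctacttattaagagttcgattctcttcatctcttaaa
The label replaces uracil, and the share of U (T in the gene) in the counted stretch had a median of 39.6% in the core mRNAs, 35.7% in the rRNAs and 36.1% in 23 mitochondrial tRNAs. It was 27.5% in 6002 nuclear protein-coding genes and 25.0% in the nuclear tRNA genes. The cysteine tRNA had the highest U share of the mitochondrial tRNAs, 40.8%, and the proline tRNA tP(UGG)Q the lowest, 26.4%.

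The way the features were counted sets what each one reports. COX1 and the intron frames AI2, AI3, AI4 and AI5_ALPHA had identical counts in every library, because each was counted over the first exon of COX1 only (169 bases, 13818 to 13986), as the lengths implied by the deposited RPKM show. COB and the frames BI2, BI3 and BI4 shared the first exon of COB (415 bases, 36540 to 36954) in the same way. The 54 features therefore held 47 distinct count profiles. AI1 was counted over 2505 bases that include the first exon of COX1, and 21S_rRNA over its first exon of 2716 bases. Neither the strand setting nor the handling of reads with several matches is stated in the labels, so values of overlapping frames are uncertain. The first exon of COX1 is printed here because 5 features are read from it alone.
COX1 exon 1 (13818 to 13986): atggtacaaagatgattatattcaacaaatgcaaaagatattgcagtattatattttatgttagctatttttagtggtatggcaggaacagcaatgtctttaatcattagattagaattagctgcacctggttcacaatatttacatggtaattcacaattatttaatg

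Total counts ran between 3618310 and 65173280 per library. The libraries of timecourse 1 stood apart before any comparison. Of the 24 mitochondrial tRNAs, 24, 23 and 23 were at 0 at 1.5, 2.5 and 5 min of that timecourse and 24 in its total RNA, while at most 1 was at 0 in each other library, both label-free ones included. Nuclear tRNAs behaved alike: 219, 220 and 223 of them were at 0 in the labelled libraries of timecourse 1 and 256 in its total RNA, against 0 to 67 elsewhere. Levels are given as CPM, counts scaled to a common library size with edgeR's trimmed-mean (TMM) factors. The factors ran between 1.47 and 2.04 in the labelled libraries and between 0.245 and 0.591 in the label-free and total RNA libraries. With plain library sizes the median of all features stood 1.97, 2.04 and 1.86 log2 units above 0 at 1.5, 2.5 and 5 min over total RNA, so a fold change is given relative to that bulk.

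In the fits over all timecourses, most RNAs of the mitochondrial genome stood lower in captured 4tU RNA than in total RNA. This is relative to the bulk of nuclear transcripts. Within timecourse 1 the share of counts outside cytoplasmic rRNA held by all mitochondrial features together, which is not TMM-scaled, went the other way. It was 0.0688%, 0.0691% and 0.0736% at the 3 labelling times, against 0.0417% in total RNA. The 2 rRNAs held 0.0505%, 0.0445% and 0.0478% there, against 0.00635% in total RNA. The Q0 features were lower in labelled RNA in that timecourse too, at 0.0184%, 0.0246% and 0.0257% against 0.0354%. The mRNAs COX2, COX3, COB and OLI1 fell at each of the 3 labelling times, by 2.23 to 4.46 on the log2 scale. Both rRNAs fell in the fit at 1.5 and 2.5 min, although within timecourse 1 they were higher in labelled than in total RNA. At 1.5 min 6 of 23 tRNAs tested fell, where 11.4% of all features were called lower. In the fit with the timecourse as a block, described below, 22 of 23 fell, where 14.7% of all features did. The blocked tRNA values rest on timecourses 2 and 3. No feature of the organelle was called higher at any of these times, where 6.71%, 4.86% and 3.26% of all features were in the unblocked fit. The mRNAs and rRNAs are described first, then the tRNAs.

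COX2 encodes a copper-binding subunit of cytochrome c oxidase. Its level was 29.1, 32.0 and 56.8 CPM in timecourses 1, 2 and 3 at 1.5 min, 40.6, 75.1 and 61.2 after 2.5 min and 49.8, 93.0 and 100.5 after 5 min, against 359.8 and 155 CPM without label and 246, 545 and 343 CPM in total RNA. All 9 labelled libraries were below all 5 others. How many of all features separate in this way was not counted, here and for the genes below. The log2 fold change was −3.27 ± 0.46 at 1.5 min (SE, n = 3 against 3, adjusted p = 0.00091 by edgeR's quasi-likelihood test), −2.68 ± 0.45 at 2.5 min (adjusted p = 0.0027) and −2.23 ± 0.44 at 5 min (adjusted p = 0.0079), each over total RNA.

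COX3 encodes another core subunit of the same enzyme. It had 17.0, 10.3 and 26.5 CPM after 1.5 min, 26.6, 25.8 and 41.0 after 2.5 min and 36.1, 43.6 and 70.9 after 5 min, against 176 and 74.7 CPM without label and 139.6, 181 and 656 CPM in total RNA. Again no labelled library reached the lowest of the others. The log2 fold change over total RNA was −4.18 ± 0.64 at 1.5 min (adjusted p = 0.0015), −3.39 ± 0.62 after 2.5 min and −2.70 ± 0.60 at 5 min (adjusted p = 0.0044 and 0.015).

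COB, cytochrome b of the bc1 complex, had 16.8, 6.91 and 18.7 CPM after 1.5 min, 20.5, 15.7 and 39.0 after 2.5 min and 23.1, 14.5 and 36.9 at 5 min. It had 141 and 84.998 CPM without label and 117, 119 and 697 CPM in total RNA. The groups did not overlap, and the log2 fold change over total RNA was −4.46 ± 0.80, −3.64 ± 0.77 and −3.65 ± 0.77 at the 3 times (adjusted p = 0.0033, 0.0092 and 0.011). OLI1, the proteolipid of the ATP synthase rotor, had 2.83, 3.09 and 12.9 CPM after 1.5 min, 5.87, 19.3 and 21.6 after 2.5 min and 8.61, 22.5 and 26.0 after 5 min, against 63.8 and 65.9 CPM without label and 45.3, 77.5 and 280.3 CPM in total RNA. Here too the highest labelled library was below the lowest other one. Its log2 fold change was −4.42 ± 0.90 at 1.5 min, −3.11 ± 0.85 after 2.5 min and −2.82 ± 0.84 at 5 min (adjusted p = 0.0067, 0.030 and 0.0499).

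ATP6, the proton-channel subunit of the ATP synthase, had 1.97, 1.34 and 5.35 CPM after 1.5 min, 2.39, 2.84 and 9.05 after 2.5 min and 2.55, 3.12 and 14.6 after 5 min, against 14.6 and 24.3 CPM without label and 5.66, 15.1 and 163 CPM in total RNA. The total RNA library of timecourse 1 lay below 2 of the labelled libraries of timecourse 3. ATP6 was called lower at 1.5 min (−4.40 ± 1.25, adjusted p = 0.032), while at 2.5 and 5 min it stood at −3.68 ± 1.21 and −3.17 ± 1.18 (adjusted p = 0.061 and 0.10). COX1, the catalytic subunit of cytochrome c oxidase, had 1.37, 0.653 and 5.84 CPM after 1.5 min, 2.45, 4.42 and 9.94 after 2.5 min and 1.70, 3.21 and 11.2 at 5 min. It had 13.6 and 16.2 CPM without label and 10.1, 17.1 and 32.4 CPM in total RNA. One labelled library, timecourse 3 at 5 min, was above the lowest total RNA library. The fold change of −2.92 ± 0.97 at 1.5 min did not pass (adjusted p = 0.058), nor did −1.83 ± 0.93 after 2.5 min and −1.89 ± 0.94 at 5 min (adjusted p = 0.20 each); with plain library sizes the value at 2.5 min was 0.22.

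VAR1, the one ribosomal protein encoded in the organelle, and ATP8, a small subunit of the ATP synthase, were scarce. VAR1 had 0, 0.241 and 1.09 CPM after 1.5 min, 0, 0.244 and 1.18 after 2.5 min and 0.0946, 0.357 and 1.77 after 5 min, against 0.439 and 6.94 CPM without label and 0, 0.286 and 17.8 CPM in total RNA. The groups overlapped, and the fold change of −3.69 ± 1.88 at 1.5 min (adjusted p = 0.18) rests on the total RNA library of timecourse 3, without which it stood at 0.99. ATP8 had between 0 and 4 counts per library and did not pass the filter on low counts. On the deposited RPKM, which divide by length, COX2 was the highest of the 8 core mRNAs in total RNA of timecourses 1 and 2 (123 and 485 RPKM) and COB in timecourse 3 (613 RPKM). At 1.5 min COX2 was highest in timecourses 2 and 3 (92.5 and 117 RPKM) and COB in timecourse 1 (45.2 RPKM), so their order differed between libraries of a group.

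**Figure D1:**
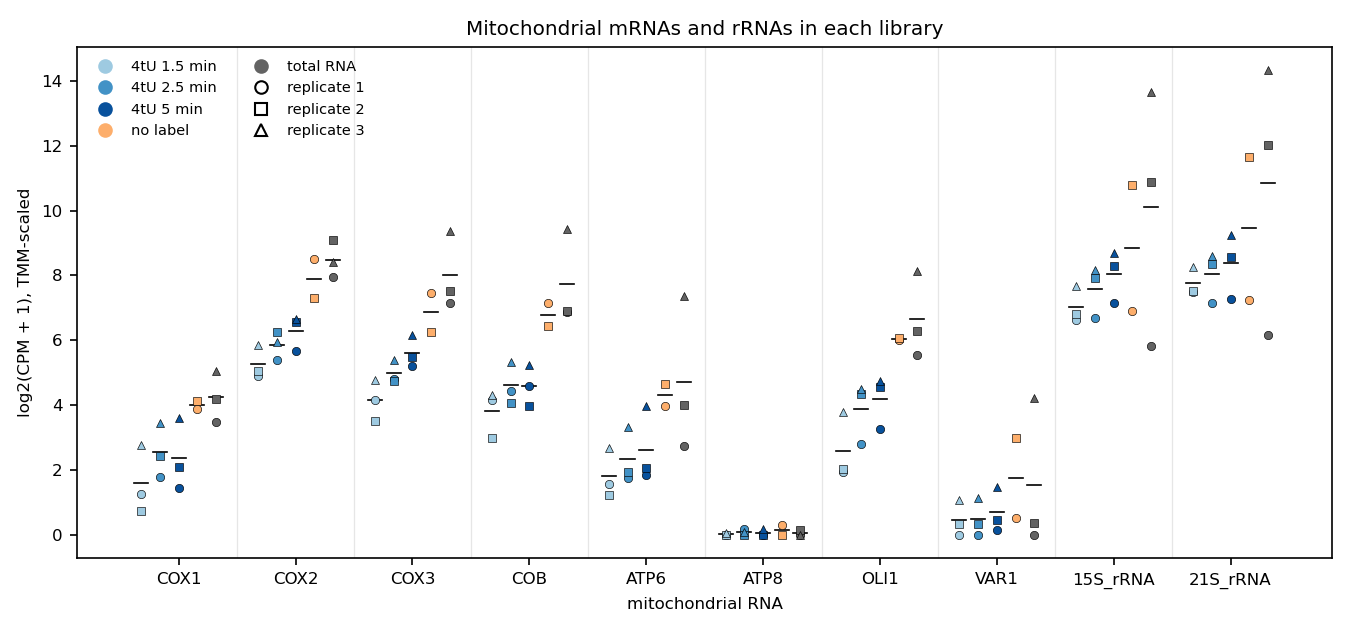
Levels of the 8 core mRNAs and both mitochondrial rRNAs, as log2(CPM + 1) on the vertical axis; each point is 1 library, its shape the replicate number (timecourse number for the labelled and total RNA libraries) and the bar the group mean. For COX2, COX3, COB and OLI1 every labelled library lies below every other library, while the rRNAs of the total RNA library of timecourse 1 (55.3 and 70.4 CPM) lie below all labelled ones. The share of all features that separate as those mRNAs do was not counted.

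The rRNAs are the 15S RNA of the small and the 21S RNA of the large mitochondrial ribosomal subunit. The 15S_rRNA had 98.6, 110.3 and 204 CPM after 1.5 min, 103, 240.3 and 289 after 2.5 min and 142, 313 and 413 after 5 min, against 119 and 1759 CPM without label and 55.3, 1904 and 12917 CPM in total RNA. The 21S_rRNA had 177, 183 and 308 CPM after 1.5 min, 141, 326 and 391 after 2.5 min and 153, 381 and 614 after 5 min, against 152 and 3206 CPM without label and 70.4, 4162 and 20722 CPM in total RNA. In both, the total RNA of timecourse 1 was the lowest of all 14 libraries, with 88 and 112 counts. At 1.5 min the fitted log2 fold change was −5.17 ± 1.37 for 15S_rRNA (adjusted p = 0.023) and −5.23 ± 1.40 for 21S_rRNA (adjusted p = 0.024), and at 2.5 min −4.56 ± 1.33 and −4.86 ± 1.37 (adjusted p = 0.039 and 0.034). At 5 min neither passed (−4.10 ± 1.30 and −4.44 ± 1.35, adjusted p = 0.062 and 0.053). Within timecourse 1 the direction was the opposite: the log2 ratio of labelled to total RNA was 0.83, 0.89 and 1.36 for 15S_rRNA and 1.33, 1.01 and 1.12 for 21S_rRNA at the 3 times. Within timecourses 2 and 3 it ran between −6.07 and −2.61 for both. Total RNA had been depleted of rRNA, and whether that touched these RNAs was not tested. With plain library sizes neither rRNA was called at any time. Per base, 21S_rRNA over 15S_rRNA was between 0.655 and 1.33 in all 14 libraries.

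Counted over the class, 17 of the 45 features that passed the low-count filter were called lower and 0 higher at 1.5 min over total RNA; among all 11513 features tested, 11.4% were called lower and 6.71% higher. The 17 comprised 5 core mRNAs of 7 tested, 2 of 2 rRNAs, 6 of 23 tRNAs and 4 of 10 intron frames, and 14 of 38 when features with identical counts are taken once. At 2.5 min 10 were lower and 0 higher, where 10.2% of all features were lower and 4.86% higher. At 5 min 8 were lower and 0 higher, where 8.47% of all features were lower and 3.26% higher. The median log2 fold change over the distinct profiles was −6.11, −5.20 and −4.26 at the 3 times, against 0.03, 0.11 and 0.13 over all features tested. A feature abundant in total RNA alone passed the filter through that group, and the counts say nothing of the 9 features that did not pass. With plain library sizes the calls numbered 12, 1 and 4, and 2, 8 and 4 of the 45 fold changes lay above 0. Of all 11513 features, 90, 73 and 65 were called lower in that setting. The median over all features was then 1.97, 2.04 and 1.86.

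The timecourse number pairs the labelled and total RNA libraries, and the fit with that block called more features lower: 41, 39 and 38 of the 45 at 1.5, 2.5 and 5 min, with 0 higher. Among all features the share called lower in that fit was 14.7%, 13.7% and 12.1%. The blocked fit called 22 of 23 tRNAs lower at each time, 6 of 7 core mRNAs, and both rRNAs at 1.5 and 2.5 min, with 21S_rRNA alone at 5 min. The tRNAs were at or near 0 in timecourse 1, so their blocked values, here and below, rest on timecourses 2 and 3. The blocked fit also called 10, 8 and 8 of the 10 intron frames at the 3 times, and 1 of 3 other frames tested, Q0182, at each. COX1 was called in it (−3.25 ± 0.57 at 1.5 min, adjusted p = 0.0027), and VAR1 was not (−2.76 ± 1.08, adjusted p = 0.090). The number of calls in the unblocked fit moved with the libraries kept, over the whole table as well as among the members. Without the 4 libraries of timecourse 2, 0 members and 0 of all 11433 features tested were called at any of the 3 times. Without timecourse 1, 22, 15 and 0 members were lower, where 2.35%, 1.18% and 0% of all 11687 features were. Without the labelled library of timecourse 1 or that of timecourse 2 the count of members at 1.5 min was 8 each, where 6.42% and 6.74% of all features were lower. Without any one of the 3 labelled libraries the count at 2.5 min was 6, where 5.57% to 6.32% of all features were lower, and without the total RNA of timecourse 1 it was 17, where 10.4% were. At 5 min it was 0 without the labelled library of timecourse 1 and 1 without that of timecourse 2, where 3.95% and 4.65% of all features were lower, and 13 without timecourse 3, where 12.7% were.

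**Figure D2:**
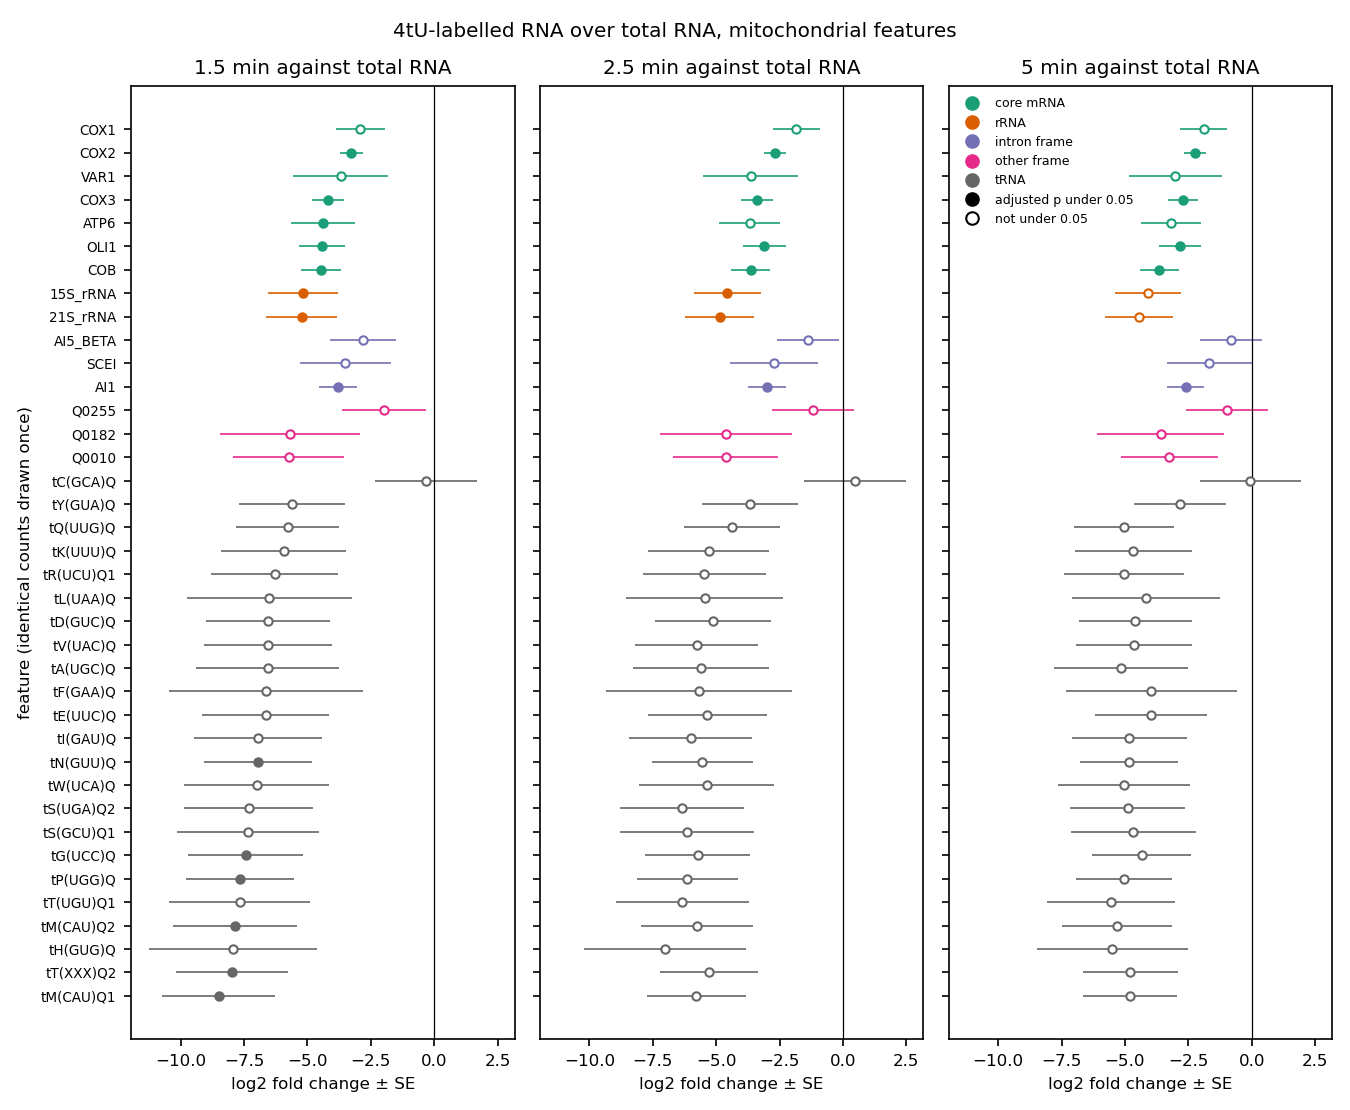
Log2 fold change (± SE, from the unblocked edgeR fit) of labelled over total RNA for the 38 distinct mitochondrial profiles tested, 1 panel per labelling time; filled points have an adjusted p under 0.05. All points but tC(GCA)Q at 2.5 min (0.48) lie below 0, and the widest error bars belong to tRNAs.

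The tRNAs, which carry amino acids to the organelle's ribosomes, took between 45.1% and 93.1% of mitochondrial counts in 10 libraries, and at most 0.058% in the 4 labelled and total RNA libraries of timecourse 1. The gene for phenylalanine, tF(GAA)Q, was the most abundant and took between 44.1% and 80.3% of mitochondrial tRNA counts in those 10. It had 0, 248 and 558 CPM after 1.5 min, 0, 394 and 1160.2 after 2.5 min and 0, 904 and 4216 after 5 min, against 9629 and 4465 CPM without label and 0, 10834 and 68956 CPM in total RNA. Within timecourses 2 and 3 it was lower at each labelling time than in total RNA, and all 4 libraries of timecourse 1 were at 0. The log2 fold change at 1.5 min was −6.63 ± 3.83 in the unblocked fit (adjusted p = 0.24) and −6.19 ± 0.61 in the blocked fit (adjusted p = 0.00050). The blocked value rests on timecourses 2 and 3.

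The histidine tRNA tH(GUG)Q had 0, 25.4 and 25.9 CPM after 1.5 min, 0, 40.8 and 57.7 after 2.5 min and 0, 104 and 175 after 5 min, against 3303 and 444 CPM without label and 0, 3276 and 9344 CPM in total RNA. The leucine tRNA tL(UAA)Q had 0, 49.9 and 56.3 CPM after 1.5 min, 0, 63.2 and 156 after 2.5 min and 0, 143 and 392 after 5 min, against 1916 and 1353 CPM without label and 0, 3060.0 and 6556 CPM in total RNA. In both, every labelled library with reads was below both label-free libraries. The alanine tRNA tA(UGC)Q had 0, 18.4 and 10.1 CPM after 1.5 min, 0, 30.4 and 25.5 after 2.5 min and 0, 38.0 and 38.2 after 5 min, against 1040.3 and 116 CPM without label and 0, 1760.2 and 956 CPM in total RNA. The tryptophan tRNA tW(UCA)Q, which also reads UGA codons in the organelle, had 0, 5.78 and 14.04 CPM after 1.5 min, 0, 20.9 and 40.7 after 2.5 min and 0, 25.0 and 53.2 after 5 min, against 486 and 265 CPM without label and 0, 907 and 1652 CPM in total RNA. The serine tRNA tS(GCU)Q1 had 0, 6.15 and 6.55 CPM after 1.5 min, 0, 10.7 and 18.5 after 2.5 min and 0, 20.4 and 61.5 after 5 min, against 469 and 171 CPM without label and 0, 714 and 1363 CPM in total RNA. These 5 tRNAs shared one pattern outside timecourse 1, with the labelled libraries lowest and total RNA of timecourse 2 or 3 highest. At 1.5 min they stood between −7.94 and −6.50 in the unblocked fit (adjusted p = 0.089 to 0.17) and between −7.76 and −6.33 in the blocked fit (adjusted p = 5.7e-05 to 0.00014).

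The 6 tRNAs called in the unblocked fit at 1.5 min were scarcer. They were tM(CAU)Q1 (−8.49 ± 2.23, adjusted p = 0.022), tT(XXX)Q2, tP(UGG)Q, tG(UCC)Q, tN(GUU)Q and tM(CAU)Q2, with fold changes between −8.49 and −6.96. tM(CAU)Q1, a methionine tRNA, had 0, 0.378 and 0.423 CPM after 1.5 min, 0, 2.68 and 3.27 after 2.5 min and 0, 2.85 and 8.96 after 5 min, against 74.0 and 12.1 CPM without label and 0, 102 and 229.6 CPM in total RNA. tT(XXX)Q2, whose identifier names no anticodon, had 0, 0.481 and 0.290 CPM after 1.5 min, 0, 1.26 and 4.29 after 2.5 min and 0, 1.70 and 6.14 after 5 min, against 35.7 and 10.7 CPM without label and 0, 42.5 and 177 CPM in total RNA. In these 2 as well, the labelled libraries lay below both label-free ones. The remaining 10 tRNAs tested, apart from that for cysteine, stood between −7.66 and −5.60 in the unblocked fit (adjusted p = 0.067 to 0.11), and all 10 were called lower in the blocked fit (−7.79 to −5.93). In timecourses 2 and 3 they ran between 0.138 and 11.0 CPM after 1.5 min and between 0.446 and 43.5 after 5 min, against 12.2 to 300.4 CPM without label and 23.2 to 1391 CPM in total RNA. The arginine tRNA tR(ACG)Q2 had 0 to 83 counts per library and was tested only where the label-free group was included.

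**Figure D3:**
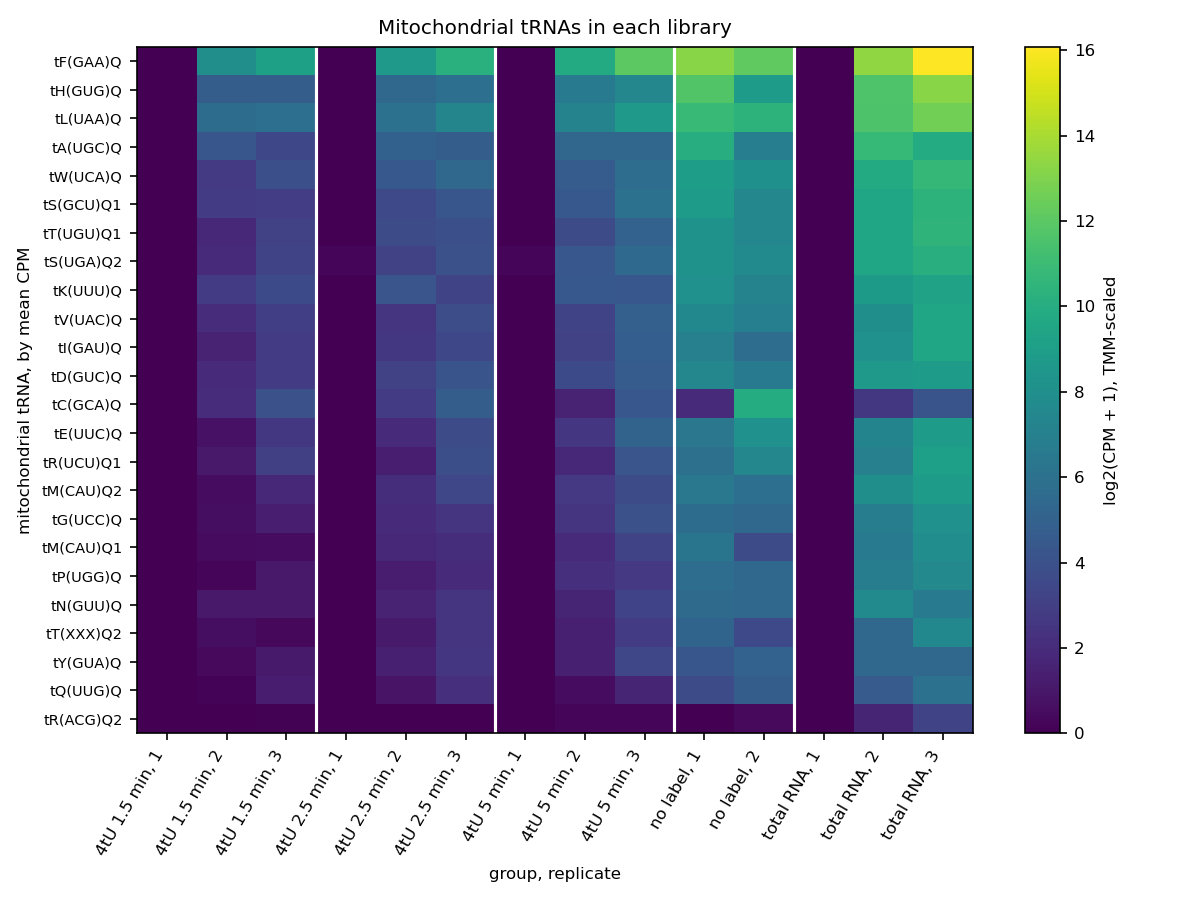
Levels of the 24 mitochondrial tRNAs, as log2(CPM + 1) in colour, with a row for each tRNA ordered by mean CPM and a column for each library grouped as labelled for 1.5, 2.5 and 5 min, without label, and total RNA. The 4 columns of timecourse 1 are at or near 0 throughout, and tC(GCA)Q is the row where total RNA is dark while the second label-free library is bright.

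The cysteine tRNA tC(GCA)Q, singled out after its values were seen, did not share the pattern. Its level was 0, 3.13 and 15.0 CPM after 1.5 min, 0, 6.05 and 25.8 after 2.5 min and 0, 2.02 and 20.0 after 5 min, against 2.85 and 1011 CPM without label and 0, 5.22 and 16.7 CPM in total RNA. Labelled and total RNA overlapped, and the log2 fold change at 1.5 min was −0.32 ± 2.00 (adjusted p = 0.93), or −0.48 ± 0.63 in the blocked fit (adjusted p = 0.60). Among mitochondrial tRNA counts it held 0.820% and 2.00% at 1.5 min in timecourses 2 and 3, 0.943% and 1.59% after 2.5 min and 0.150% and 0.381% after 5 min, against 0.0213% and 0.0174% in total RNA. The log2 ratio of its share, labelled over total RNA, ran between 2.82 and 6.85, and in every one of these 6 pairs it was above that of every other tRNA with at least 10 counts in both libraries (between −3.15 and 2.82). The highest ratio among the others belonged to tY(GUA)Q, for tyrosine, in timecourse 3 at 2.5 min.

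The same counts of tC(GCA)Q were also set against those of its neighbour tH(GUG)Q, which is not separate evidence. The share of tH(GUG)Q itself was lower in labelled than in total RNA in each pair (log2 ratio between −1.54 and −0.80), which raises this ratio. The count of tC(GCA)Q over that of tH(GUG)Q was 0.123 and 0.580 at 1.5 min, 0.148 and 0.446 after 2.5 min and 0.0195 and 0.114 at 5 min in timecourses 2 and 3, against 0.00159 and 0.00179 in total RNA. The label-free libraries gave 0.00086 and 2.28, so one of them was below both total RNA libraries and the other above every labelled library. The share of tC(GCA)Q among mitochondrial tRNAs was 0.0152% and 10.8% in those 2 libraries. With 2 libraries that far apart, no level of background can be given for this tRNA.

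**Figure D4:**
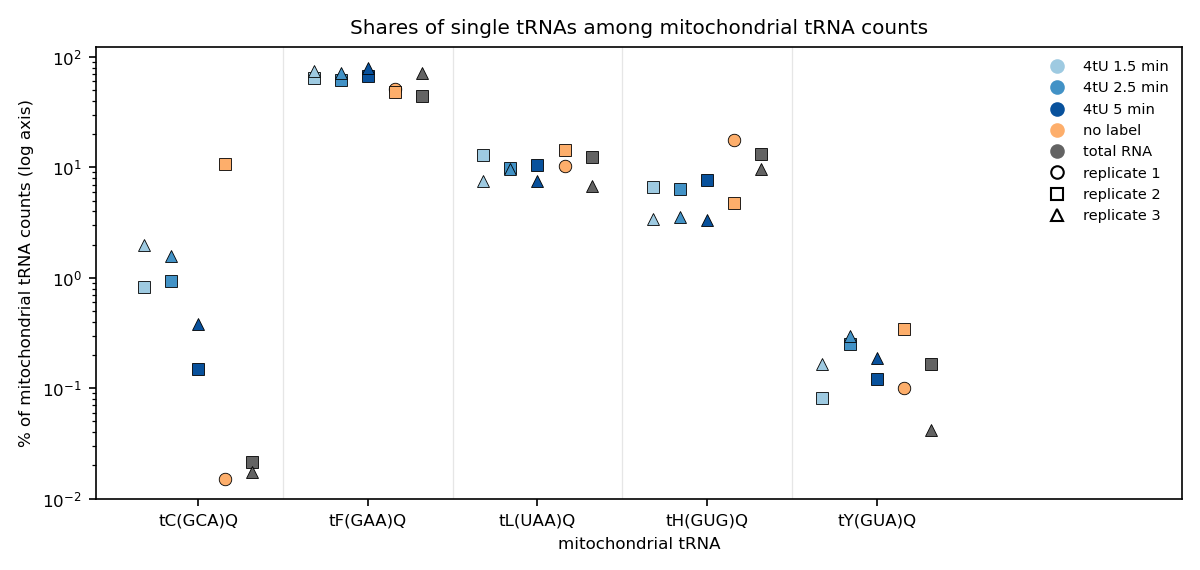
Share of 5 tRNAs among all mitochondrial tRNA counts, in percent on a log axis, in the 10 libraries other than the labelled and total RNA ones of timecourse 1; colour gives the group and shape the replicate. tC(GCA)Q lies between 0.150% and 2.00% in labelled libraries and at 0.0213% and 0.0174% in total RNA, while tF(GAA)Q stays between 44.1% and 80.3%.

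The intron frames encode maturases and homing endonucleases that act on their own introns. AI1, the frame of the first COX1 intron, had 28.7, 11.6 and 36.8 CPM after 1.5 min, 33.0, 41.2 and 59.5 after 2.5 min and 33.5, 44.1 and 99.1 after 5 min, against 146 and 74.1 CPM without label and 128, 165 and 775 CPM in total RNA. Every labelled library was below every total RNA library, and 1 of them, timecourse 3 at 5 min, was above the lower label-free library. It was called lower at the 3 times (−3.80 ± 0.77, −3.00 ± 0.74 and −2.60 ± 0.73, adjusted p = 0.0062, 0.019 and 0.039). Per base, intron sequence of AI1 over the first exon of COX1 was 1.44, 1.21 and 0.383 at 1.5 min, 0.901, 0.601 and 0.361 after 2.5 min and 1.35, 0.922 and 0.566 after 5 min, against 0.707 and 0.258 without label and 0.850, 0.625 and 1.66 in total RNA. The groups overlapped in this ratio.

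SCEI, the endonuclease I-SceI encoded in the 21S intron, did not pass the unblocked test in any comparison (−3.50 ± 1.79 at 1.5 min, adjusted p = 0.18), and was called lower in the blocked fit at 1.5 min alone (−3.07 ± 0.64, adjusted p = 0.0070). Per base it stood at 1.67%, 1.22% and 18.2% of 21S_rRNA at 1.5 min, 4.73%, 6.45% and 20.0% after 2.5 min and 5.44%, 6.47% and 30.6% after 5 min, against 14.1% and 1.51% without label and 10.3%, 0.627% and 3.21% in total RNA. Within timecourses 2 and 3 each labelled library was above its total RNA. In timecourse 1 it was below, where the total RNA library held 3 counts of SCEI. AI5_BETA, a frame within COX1 intron sequence, stood at −2.81 ± 1.29 at 1.5 min in the unblocked fit (adjusted p = 0.14) and was called lower in the blocked fit (−3.31 ± 0.62, adjusted p = 0.0038).

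Of the 10 other reading frames, Q0010, Q0182 and Q0255 were tested against total RNA, and the unblocked fit called none. The blocked fit called Q0182 lower at the 3 times (−4.60 ± 0.88, −4.35 ± 0.79 and −3.52 ± 0.75, adjusted p = 0.0042, 0.0036 and 0.0093) and the other two at none. Q0182 had up to 20884 counts and was near 0 in timecourse 1, with 0.772, 16.2 and 51.0 CPM after 1.5 min, 0.258, 19.0 and 126 after 2.5 min and 0.189, 35.4 and 259 after 5 min, against 186 and 717 CPM without label and 0, 507 and 3039 CPM in total RNA. Like the mitochondrial tRNAs, Q0182 had 0 counts in total RNA of timecourse 1. The annotation used did not list Q0182, so whether it overlaps a tRNA gene was not examined. Q0255 stood at −1.98 ± 1.66 at 1.5 min (adjusted p = 0.41). Q0017 and Q0297 were tested only with the label-free group included. The frames Q0032, Q0092, Q0142, Q0143 and Q0144 had at most 33 counts in any library and were not tested. RPM1, the RNA of mitochondrial RNase P, which cuts tRNA 5′ ends, falls outside the identifiers used here; it had 2, 8 and 64 counts at 1.5 min, 2, 7 and 64 after 2.5 min and 0, 11 and 37 after 5 min, against 11 and 112 without label and 1, 38 and 41 in total RNA.

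Between labelling times, 5 min was tested against 1.5 min, and no mitochondrial feature was called. All 45 log2 fold changes were above 0, with a median of 1.96 over distinct profiles against 0.05 over all features, and edgeR called 0 of the 45 (2 at an unadjusted p under 0.05, 0 by DESeq2) and 0% of all 11513 features. The median was 1.04 for the 7 core mRNAs and 2.33 for the 23 mitochondrial tRNAs, against 1.60 for 234 nuclear tRNAs; whether these differ was not tested. The 2 with an unadjusted p under 0.05 were COX3 (1.48 ± 0.58, adjusted p = 0.70) and COX2 (1.04 ± 0.42, adjusted p = 0.71). With the timecourse block 0 were called as well, 44 of the 45 were above 0, and tW(UCA)Q stood at 2.01 ± 0.26 (adjusted p = 0.053).

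The share of counts outside cytoplasmic rRNA that the mitochondrial features held was also followed over labelling time. In timecourse 2 it was 0.159%, 0.292% and 0.402% at 1.5, 2.5 and 5 min, and in timecourse 3 0.349%, 0.578% and 1.31%. In timecourse 1 it was 0.0688%, 0.0691% and 0.0736%, where tRNAs gave almost no reads. The label-free libraries held 1.01% and 1.62% and total RNA 0.0417%, 1.95% and 6.06%. Labelled libraries averaged 0.192% ± 0.143 at 1.5 min (SD, n = 3), against 2.68% ± 3.08 in total RNA (SD, n = 3), and the exact two-sided permutation test gave p = 0.4; 3 libraries against 3 cannot give less than 0.1. For the 24 tRNAs alone the shares were 0.0849% ± 0.0877 at 1.5 min and 1.92% ± 2.18 in total RNA (exact permutation p = 0.4).

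**Figure D5:**
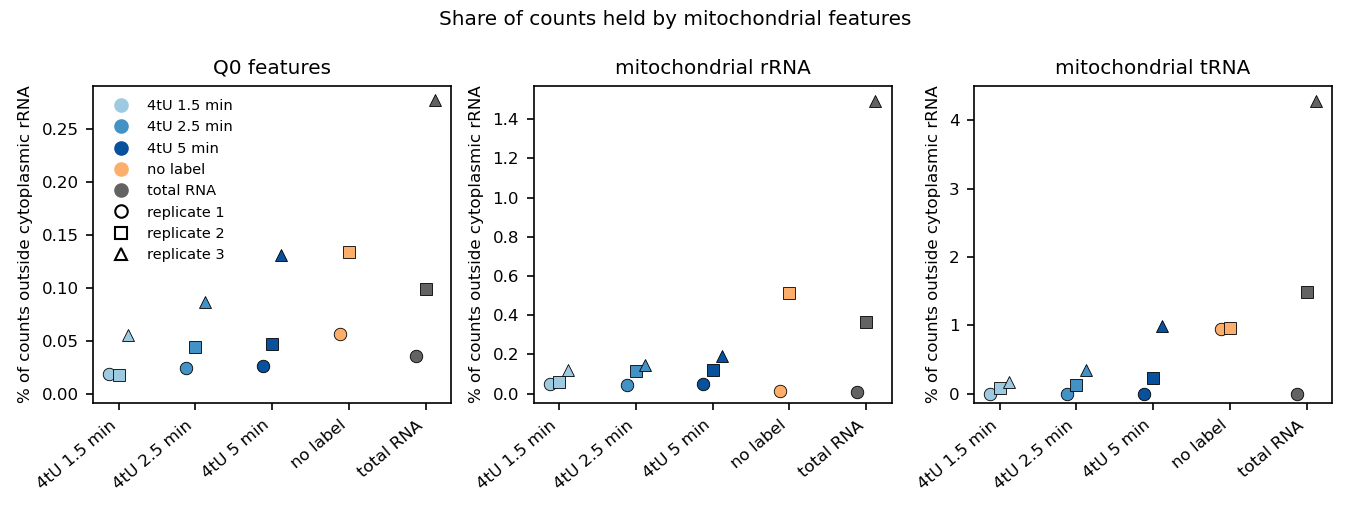
Share of counts outside cytoplasmic rRNA held by the Q0 features, the 2 mitochondrial rRNAs and the 24 mitochondrial tRNAs, in percent, for each library; colour gives the group and shape the replicate, and each panel has its own axis. Total RNA spans the widest range in each panel, and timecourse 1 is lowest in the tRNA panel (0 in its total RNA).

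Capture without label gave the background of the procedure. COX2, COX3, OLI1 and COB were lower at 1.5 min than without label, with log2 fold changes of −2.71 ± 0.53, −2.80 ± 0.66, −3.36 ± 0.86 and −3.00 ± 0.77 (n = 3 against 2, adjusted p = 0.019, 0.032, 0.041 and 0.043 by edgeR). With the 3 frames that share the counts of COB, 7 of 48 tested features were lower and 0 higher, where 3.35% of all 11688 features were lower and 1.44% higher. At 2.5 min COX2 alone was called (−2.13 ± 0.52, adjusted p = 0.047), where 2.17% of all features were lower and 0.642% higher. At 5 min 0 were called (8 at an unadjusted p under 0.05, 1 by DESeq2), where 0.282% of all features were lower and 0.0599% higher. Leaving out any labelled library at 1.5 min, or the first label-free library, gave 0 calls in place of 7, and so did plain library sizes. Without any one of the 3 labelled libraries, 0 or 1 feature of the whole table was called, while without the first label-free library 467 of all 11811 features were lower, and with plain library sizes 10 of all 11688. At 1.5 min 46 of the 48 fold changes lay below 0. Their median was −5.11 over the 41 distinct profiles, against −0.09 over all features. With plain library sizes the median of the 7 core mRNAs tested was −0.55, 0.26 and 0.47 at the 3 times. Of those 7, 0 lay above 0 at 1.5 min and 6 at 2.5 and at 5 min. The median of all features in that setting was 2.26, 2.27 and 2.13.

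Against total RNA the label-free group had 0 mitochondrial features called of 48 tested (3 at an unadjusted p under 0.05, 0 by DESeq2), and 0% of all features. The 2 label-free libraries were far apart for several members. The second held 14.7 times the 15S_rRNA level of the first and 354 times the tC(GCA)Q level, while the first held 7.43 times the tH(GUG)Q level of the second. Cytoplasmic rRNA took 51.2% and 55.1% of their counts, against 2.28% to 25.4% in labelled libraries at 1.5 min and 2.29% to 27.6% in total RNA. The part of this in the results on mitochondrial RNA was not tested. Both rRNAs at 1.5 min stood below the label-free group (−2.77 ± 1.37 for 15S_rRNA and −2.91 ± 1.43 for 21S_rRNA, adjusted p = 0.23 each), and above its first library alone (0.21 and 0.55).

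Nuclear genes that serve the mitochondrial genome were set beside its own transcripts at 1.5 min over total RNA, in lists put together with earlier results of these data known. Among all features tested in that comparison, 11.4% were lower and 6.71% higher. Of 28 genes of mitochondrial transcription, RNA processing and decay, 0 were higher and 1 lower, PET54, which acts in COX3 translation and COX1 splicing (−2.70 ± 0.73, adjusted p = 0.026); the median was 0.24. Of 22 translational activators and stability factors tested, 2 were higher and 1 lower with a median of 0.13. ATP22, an activator of ATP6 translation, stood at 2.36 ± 0.51 and COA3, a cytochrome c oxidase assembly factor, at −1.95 ± 0.58 (adjusted p = 0.0090 and 0.038). Of 13 mitochondrial aminoacyl-tRNA synthetases, 2 were higher and 0 lower with a median of 0.16: MSF1, for phenylalanine (2.50 ± 0.56, adjusted p = 0.011), and MSW1, for tryptophan (1.35 ± 0.28, adjusted p = 0.0067). These medians lie close to that of all features.

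Nuclear subunits of the same respiratory complexes had a median between those of all features and of the core mRNAs. Of 28 partners of the encoded subunits, 14 were lower and 0 higher (20 lower with the timecourse block), with a median of −1.33, against −4.18 for the 7 core mRNAs tested. Among all 11513 features tested, 11.4% were lower and 6.71% higher. With the block 1687 of them were lower and 1075 higher. COR1, a core subunit of the bc1 complex (−2.37 ± 0.25, adjusted p = 0.00040), and ATP2, the beta subunit of the ATP synthase (−2.40 ± 0.47, adjusted p = 0.0052), had the largest fold changes among those called. With plain library sizes the median of the partners was 0.71 with 6 higher and 0 lower, while that of the core mRNAs was −2.02. In that setting 6587 of all 11513 features were higher and 90 lower, with a median of 1.97. PET54, COA3, ATP2 and COR1 were not called then. Of 234 nuclear tRNAs tested, 1 was higher and 3 lower (9 and 72 with the timecourse block) with a median of −2.07, against −6.95 for 23 mitochondrial tRNAs; both classes were near 0 in timecourse 1. Within timecourse 2 the median log2 ratio of labelled to total RNA was −1.31, 0.07 and 0.20 for nuclear tRNAs at the 3 times and −7.02, −5.71 and −5.12 for mitochondrial tRNAs. Within timecourse 3 it was −3.51, −2.12 and −2.18 for nuclear tRNAs and −6.88, −5.54 and −4.68 for mitochondrial ones. In both timecourses the mitochondrial tRNAs stood further below total RNA than the nuclear ones at each labelling time.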

How the data were processed

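The authors deposited read counts per annotated feature and RPKM values (reads scaled for length and depth) for the same libraries, per the file headers; the submitters' processing notes name STAR 2.4.2a and build R64, with no role given. The counting tool, its strand setting and any use of the random barcode bases to collapse PCR copies were not given in the sources used here. From the 12554 table lines, 100 repeated rows and 5 empty lines were removed, which left 12449 features. RPKM served only to order levels per length and to infer counted lengths; 2 deposited columns of values, the RPKM of the label-free libraries, were not used because their columns name a group and no sample.

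Counts were tested with edgeR 4.0.16 in R 4.3.3: features passing filterByExpr (minimum count 10), TMM scaling, the quasi-likelihood F test and Benjamini-Hochberg adjustment over all features, with calls at an adjusted p under 0.05. One fit over the labelled and total RNA groups gave the comparisons among them, and one over all 5 groups those with no label and the CPM printed. Standard errors are the log2 fold change divided by the square root of F. Log2 ratios within a timecourse use TMM-scaled CPM where both counts reach 10. Shares were compared with exact permutation tests (scipy 1.17.1). The code of the unblocked fit was run on simulated counts that held no timecourse effect. That run does not bear on the blocked fit or on features at 0 in timecourse 1.

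The labels' titles give shared timecourse numbers. Deviations from group means correlated between 0.3157 and 0.8746 in 18 same-numbered pairs and between −0.6571 and −0.0066 in 36 others. Deviations within a group sum to 0, so the negative values are not separate support for the pairing. The numbers were taken to pair the samples, and a fit with the timecourse as a block is given beside the results. Alternatives were DESeq2 1.42.0, other scalings, no low-count filter and leaving out libraries; counting identical profiles once and leaving the labelled and total RNA libraries of timecourse 1 out of the comparisons with no label, with both label-free libraries kept, were added after the data were seen. The members and the gene lists were chosen with earlier results of these data known. Values per library are given for the core mRNAs, both rRNAs, RPM1 and the 6 tRNAs with the highest mean CPM. Among the other members, those called with the smallest adjusted p are named, at most 6 a comparison. For nuclear lists, up to 2 called genes with the largest fold change are named. SCEI, Q0182 and tC(GCA)Q were added after their values were seen. The SEs printed include the spread between libraries that the fit estimates, and the SDs measure the spread between libraries.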

Additional observations from a re-analysis of the deposited data

How the results depend on the processing

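Counts of mitochondrial features called over total RNA stood at 17, 10 and 8 at 1.5, 2.5 and 5 min, where 11.4%, 10.2% and 8.47% of all features were lower. They became 41, 39 and 38 with the timecourse as a replicate block, where 14.7%, 13.7% and 12.1% of all features were lower. With identical profiles counted once the count of members at 5 min was 5. Plain library sizes gave 1 and 4 at 2.5 and 5 min, where 73 and 65 of all 11513 features were lower. Leaving out libraries gave 0 to 23, 0 to 17 and 0 to 13. The share of all features called lower then ran between 0% and 17.6%, 16.2% and 14.7% at the 3 times. Against no label, the 7 calls at 1.5 min became 3 with RLE size factors (323 of all 11688 features lower) and 1 with scaling on nuclear protein-coding genes (206 lower). They became 4 with identical profiles counted once, and 0 with plain library sizes (10 lower) or without the labelled and total RNA of timecourse 1 (0 lower). Leaving out libraries gave 0 to 6, where 0% to 5.21% of all features were lower. The 1 call at 2.5 min became 2 with DESeq2 (803 of all 11688 features lower and 658 higher). It became 0 with plain library sizes (4 lower), with scaling on nuclear protein-coding genes (116 lower) or without timecourse 1 (0 lower), and leaving out libraries gave 0 to 1. At 5 min DESeq2 gave 1 in place of 0 (759 of all features lower and 549 higher), and leaving out libraries gave 0 to 1. The other 74 counts were within 1.5 times the values given in the text. At 5 against 1.5 min the replicate block gave 0 calls, as did every alternative run there. Of the log2 fold changes under alternatives, 682 kept direction and side of the threshold, 137 lost the call, 60 gained it and 9 reversed. VAR1 ran between −5.40 and 0.99, −5.48 and 1.03, and −4.62 and 1.67 at the 3 times when libraries were left out, with the upper values without the total RNA of timecourse 3. tC(GCA)Q at 1.5 min ran between −2.23 and 0.82, with 0.26 without the labelled library of timecourse 1, and stood at 1.87 with plain library sizes. COX1 at 2.5 min was 0.22 with plain library sizes. At 1.5 min against no label, 15S_rRNA ran between −3.67 and 0.21 and 21S_rRNA between −3.84 and 0.55, the upper values without the second label-free library. The difference in the share of mitochondrial rRNA from no label ran between −0.438 and 0.0632, −0.413 and 0.0883, and −0.395 and 0.107 percentage points at the 3 times, again by that library. Q0 shares were 6e-05 and 0.0135 points above no label at 2.5 and 5 min with all counts as denominator. With libraries left out they ran between −0.0663 and 0.0116 points over no label at 5 min, and between −0.121 and 0.00055 over total RNA. The cause of these changes was not tested. ATP8 and 8 other features were below the filter on low counts and were not tested against total RNA, and the shallowest library was the total RNA of timecourse 1, at 3618310 counts.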
